A study of Mus musculus with 6 samples.

Results

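The 48 genes described here encode, in the nucleus, the proteins of respiratory complexes II, III, IV and V and cytochrome c of the mitochondrion. They were taken by gene symbol, as the protein-coding genes of GENCODE M21 whose symbol names succinate dehydrogenase (Sdha to Sdhd), ubiquinol-cytochrome c reductase (Uqcr and Cyc1), cytochrome c (Cycs), cytochrome c oxidase (Cox4 to Cox8) or ATP synthase (Atp5). The count table lists 22579 genes and 49 of them match. A minimum of 30 reads over the 6 libraries left 48, since Cox8b, a muscle-type oxidase subunit gene, had 29 reads; the lowest gene kept, Cox6a2, had 208. Complex II has 4 of the 48 genes, complex III 9, cytochrome c 1, complex IV 17 and complex V 17. The symbol rule used no measured value beyond the read minimum, but the set was chosen with earlier results of these data known. Atpif1 and Usmg5, an inhibitor and a small subunit of the ATP synthase, carry other symbols in that annotation and are not among the 48.

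RNA of THY1-positive spermatogonia was sequenced in 3 control libraries and 3 Ddx20 knockout libraries of the mouse, all labelled day 4, each from roughly 1000 cells. THY1 is a surface protein that enriches undifferentiated spermatogonia, and DDX20 is a DEAD-box RNA helicase of the SMN complex. The columns of the count table call the knockout cKO. Strain, age beyond the day, any Cre driver and the deleted exons are not stated in the sources used here, so how far the knockout reaches is not known. Libraries were made with SMART-seq2, which primes cDNA at the poly(A) tail and amplifies it by PCR without molecular identifiers or a record of the strand.

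Electrons from the oxidation of nutrients pass along the respiratory chain of the inner mitochondrial membrane. Complex II takes them from succinate, complex III passes them from ubiquinol to cytochrome c, and complex IV hands them to oxygen. Complexes III and IV pump protons on the way, and complex V, the ATP synthase, makes ATP as the protons flow back. Complex II is wholly encoded in the nucleus, while the other 3 also hold subunits made from mitochondrial DNA. Several subunits of complex IV have alternative isoforms typical of muscle, lung or testis, and spermatogonia are generally held to rely more on glycolysis than later germ cells do.

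The 5 promoters that follow belong to the 2 genes of the set that passed the test of knockout against control, Uqcrfs1 and Cox7a2l, and to the 3 genes for the same ATP synthase c subunit, Atp5g1, Atp5g2 and Atp5g3, which are described together further on. Each runs 5′ to 3′ from 250 bases before to 50 bases after the RefSeq start (GRCm38.p6), and capitals mark a match to a searched motif. The RefSeq start can lie inside the GENCODE gene, as it does for Cox7a2l and Atp5g2 among others, so other annotated starts are not covered.
Uqcrfs1 (chr13:30545267-30545566, minus strand): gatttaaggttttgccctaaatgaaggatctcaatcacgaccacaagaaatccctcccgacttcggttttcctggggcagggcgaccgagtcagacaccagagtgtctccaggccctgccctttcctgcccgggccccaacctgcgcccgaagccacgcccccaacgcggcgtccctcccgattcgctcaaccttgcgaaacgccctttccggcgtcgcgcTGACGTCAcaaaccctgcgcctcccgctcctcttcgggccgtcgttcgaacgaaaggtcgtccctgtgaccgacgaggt
Cox7a2l (chr17:83514284-83514583, minus strand): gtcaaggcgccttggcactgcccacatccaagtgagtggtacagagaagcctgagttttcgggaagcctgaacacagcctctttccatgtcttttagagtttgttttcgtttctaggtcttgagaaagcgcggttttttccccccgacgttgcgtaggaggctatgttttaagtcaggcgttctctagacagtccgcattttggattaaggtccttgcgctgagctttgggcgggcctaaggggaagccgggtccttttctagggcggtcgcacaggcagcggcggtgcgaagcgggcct
Atp5g1 (chr11:96075582-96075881, minus strand): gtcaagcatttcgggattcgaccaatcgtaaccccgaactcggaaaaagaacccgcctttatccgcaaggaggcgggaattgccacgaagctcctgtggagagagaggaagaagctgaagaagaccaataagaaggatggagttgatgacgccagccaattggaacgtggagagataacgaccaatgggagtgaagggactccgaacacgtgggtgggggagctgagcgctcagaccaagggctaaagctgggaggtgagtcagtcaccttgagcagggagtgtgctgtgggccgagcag
Atp5g2 (chr15:102670998-102671297, minus strand): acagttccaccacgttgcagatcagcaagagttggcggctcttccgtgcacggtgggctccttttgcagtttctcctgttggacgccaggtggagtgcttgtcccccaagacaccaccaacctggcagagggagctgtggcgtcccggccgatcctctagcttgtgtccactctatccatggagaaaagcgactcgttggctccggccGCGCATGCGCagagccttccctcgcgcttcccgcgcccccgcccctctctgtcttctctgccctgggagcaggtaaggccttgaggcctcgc
Atp5g3 (chr2:73911277-73911576, minus strand): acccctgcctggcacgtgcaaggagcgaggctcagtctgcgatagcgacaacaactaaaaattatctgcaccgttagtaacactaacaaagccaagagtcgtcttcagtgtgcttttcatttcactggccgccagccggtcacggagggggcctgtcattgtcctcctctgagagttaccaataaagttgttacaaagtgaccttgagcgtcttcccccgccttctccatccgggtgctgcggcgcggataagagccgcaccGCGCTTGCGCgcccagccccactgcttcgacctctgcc
The motifs searched on both strands were GCGCA, any base and then GCGC (the palindrome of NRF1, a regulator of respiratory genes), CCGGAAG (an ETS site, the type bound by GABPA) and AAGATGGC (YY1), with TGACGTCA (the CRE of CREB and ATF factors) added after the Uqcrfs1 sequence had been read. The capitals in Atp5g2 and Atp5g3 are NRF1 matches and those in Uqcrfs1 are a CRE match; Cox7a2l and Atp5g1 hold none of the 4 motifs in this window. RefSeq promoters were found for 34 of the 48 genes. Of these 34 genes 10 (29.4%) hold the NRF1 motif, against 5.19% of all 27025 genes in the promoter table, and 12 (35.3%) hold the ETS motif, against 9.93%. The YY1 motif was found in 2 (5.88%, against 3.19%) and the CRE in 2 (5.88%, against 2.03%). The 2 CRE genes are Cycs and Uqcrfs1. The CRE was searched because of Uqcrfs1, so its share cannot show an excess over all genes. All of these are matches of letters and not measured binding. The 27025 genes were not limited to those tested here.

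Total counts ran from 8428871 to 12497967 per library. Ddx20 was lower in each knockout library, with 668, 383 and 531 reads in controls against 128, 168 and 119 in knockouts (log2 fold change −1.89 ± 0.26 SE; adjusted p 0.0118, quasi-likelihood test of edgeR). All 12 germ cell markers had reads in both groups; the germ cell gene Dazl stood at 2767 ± 401 and 3132 ± 169 CPM (SD, n = 3), and Thy1 itself at 9.01 ± 4.17 and 6.49 ± 0.80 CPM. CPM here are read counts scaled to the library size after TMM normalization. The libraries were unequal. Control 1 stood apart, with the fewest reads and a TMM factor of 1.25 where the other 5 libraries had 0.891 to 1.10, and the pair of knockout 1 and knockout 2 was closer to each other (a mean chi-square of 1.78 per gene, with 1 from sampling noise) than the other 14 pairs (11.96 to 104.2). Nothing in the labels says that knockout 1 and 2 came from separate animals. Calls by edgeR are therefore also given with the pair counted as 1 library. All p-values rest on the spread of these 6 samples, and that spread may be technical only. Over all 14766 genes tested edgeR called 2.03% higher and 2.8% lower, and DESeq2 called 5.38% higher. At an unadjusted p under 0.05, 11.3% were higher and 12.8% lower. Of 12 germ cell markers Gfra1 and Ret were called lower and Mael higher. Of the 12, 8 had a negative log2 fold change and 4 a positive one, with a median of −0.46. At the unadjusted limit 5 of the 12 were lower and 1 higher. Markers of other cells were called higher in knockouts too. These were 2 of 7 Sertoli markers (summed CPM 52.3 to 61.4 in controls, 118 to 138 in knockouts), 2 of 6 T lymphocyte markers (25.4 to 32.6, then 51.0 to 71.0) and 3 of 7 smooth muscle markers. No gene of these 3 lists was at 0 over either group. Clu was the largest part of the Sertoli sum, at 30.6 ± 6.45 CPM in controls and 90.3 ± 14.9 in knockouts (SD, n = 3). Of the tested Sertoli markers 6 had a positive log2 fold change and Sox9 a negative one (−0.68). Of the T lymphocyte markers 5 had a positive one and Trac a negative one (−0.16). Macrophage and endothelial markers gave 0 calls of 6 each by edgeR, with 2 higher at an unadjusted p under 0.05 in each list and 1 and 2 called higher by DESeq2. Their sums were nonetheless higher in every knockout library. For macrophages they were 648, 1625 and 1387 CPM against 1817, 1941 and 2644, where control 1 was lowest as in most of the 48 genes. For endothelium they were 47.6 to 54.5 against 71.8 to 73.0. Lyz2 was the largest part of the macrophage sum, at 657 ± 314 CPM in controls and 1384 ± 337 in knockouts (SD, n = 3). In each list 5 of 6 genes had a positive log2 fold change and 1 a negative one (Csf1r −0.09 and Cdh5 −0.07). Adgre1, another macrophage gene, had 0.07. With knockout 1 and 2 as 1 library edgeR called 0 of the 15 genes outside the 48 that are given here as called, Ddx20, the called markers, Ndufs1, Mrps27 and 2 mitochondrially encoded genes among them (adjusted p 0.0541 to 0.237). In that setting DESeq2 called 8 and gave no adjusted p for Actg2, Cldn11 and Lck. The part of such cells in the values of the 48 genes was not tested. In bulk RNA, fewer cells of a type and less RNA per cell cannot be told apart.

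In the knockouts 40 of the 48 genes (29 with library size scaling, 32 once a trend with length and GC was removed) had a positive log2 fold change, but 2 passed the test and 46 did not. The 2 that rose were Uqcrfs1, the Rieske iron-sulfur protein of complex III, and Cox7a2l, a factor that joins complexes III and IV into supercomplexes. That is 4.17% of the 48, where 2.03% of all 14766 genes tested were called higher, and no gene of the set was called lower, where 2.8% of all genes were. The median log2 fold change was 0.32 over the 48 genes and 0.01 over all genes tested, of which 50.3% were above 0 (83.3% of the 48); library size scaling moved these medians to 0.09 and −0.26. By complex it was 0.32 for complex II, 0.24 for complex III, 0.33 for complex IV and 0.37 for complex V, and cytochrome c had 0.22. Without adjustment 13 of the 48 had a p under 0.05, all higher in knockouts (27.1%, where 11.3% of all genes were higher and 12.8% lower at that limit). In 16 (33.3%, against 16.8% of all genes) each knockout library was above each control, and in 0 was each below, where 15.8% of all genes were. DESeq2 called 8 of the 48 higher (16.7%, against 5.38% of all genes) and limma-voom 10 (20.8%, against 7.38%). When the pair of knockout 1 and 2 stood for 1 library, edgeR called 0 of the 48 (background 0.00649%, 1 gene of 15406), while DESeq2 called 2, Uqcrfs1 and Cox7a2l (background 1.34%). Other settings of edgeR called 1 with library size scaling (background 1.53%), 5 with no filter (1.96%) and 3 with the replicate number as a block (2.11%). With control 1, 2 or 3 left out it called 3, 0 and 2 (2.67%, 0.72% and 2.25%), and with any knockout left out 0 (0.026%, 0.0455% and 0.013%).

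**Figure D1:**
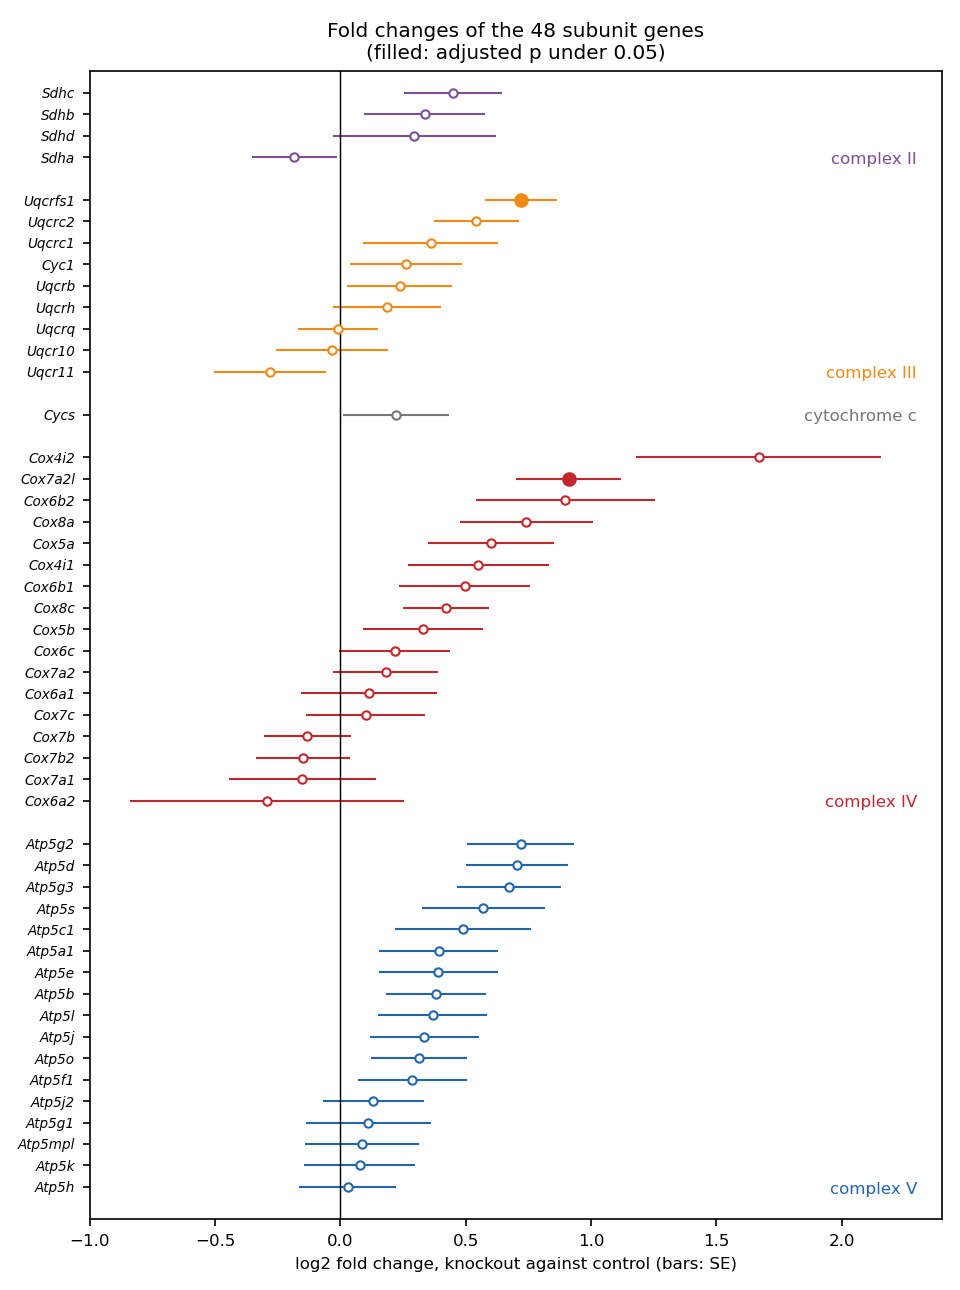
Log2 fold change of knockout against control for each of the 48 genes, sorted within its complex, with bars for 1 SE (edgeR, 3 libraries per group); filled points mark an adjusted p under 0.05. All 17 genes of complex V lie above 0 under the TMM scaling drawn here (5 of them do not with library size scaling), complexes II, III and IV have genes on both sides, and Uqcrfs1 and Cox7a2l are the filled points.

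The controls spread widely in these genes. Control 1 was the lowest of the 3 controls in 43 of the 48 genes, where it was so in 39.4% of all genes tested. It was the lowest of all 6 libraries in 42 of the 48, against 30.1% of all genes tested. Control 2 was the highest of the 6 libraries in 18 of the 48, where it was so in 14.8% of all genes. Set against the mean of the 3 controls, the median gene of the set stood at −0.48 on the log2 scale in control 1, 0.34 in control 2 and 0.03 in control 3, and at 0.27, 0.28 and 0.27 in the 3 knockouts. Control 2 was therefore above the knockouts by this measure, and control 1 was far below them. Without control 1 the median log2 fold change of the 48 was 0.10 and 31 of the 48 were above 0; without control 2 it was 0.46. The 48 genes are also shorter than most, with a median exon length of 1631 bases against 4219 over all genes tested. With each library's trend with exon length and GC content removed, the median was 0.15 and edgeR called 1 gene higher, Cox7a2l (background 1.69%), and 1 lower, Cox7b2 (2.43%).

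**Figure D2:**
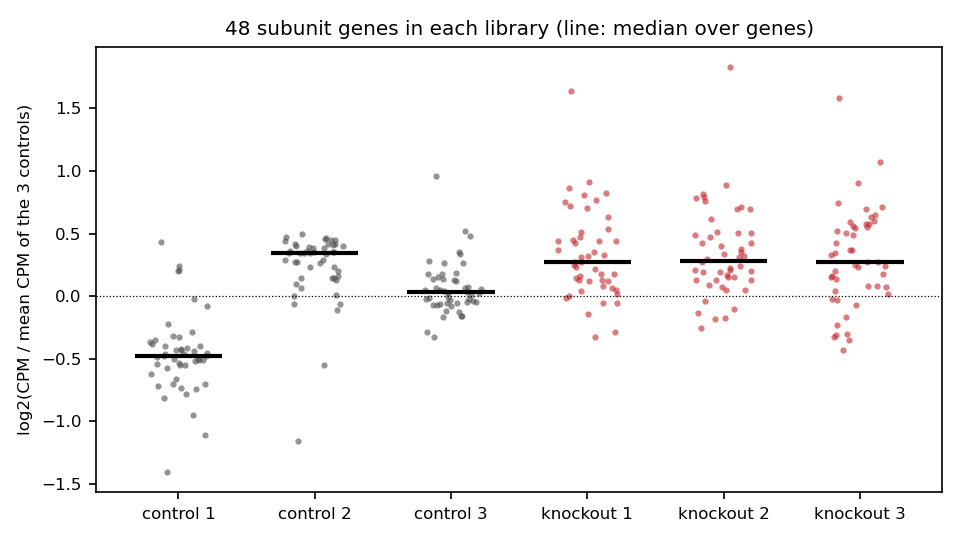
Each point is 1 of the 48 genes in 1 library, as log2 of its CPM over its mean CPM in the 3 controls, and the line is the median over genes. The medians are −0.48, 0.34 and 0.03 in controls 1, 2 and 3 and 0.27 to 0.28 in knockouts, so that the knockouts lie between controls 2 and 3.

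In summed reads too control 1 was the lowest library and control 2 the highest. The 48 genes took 1.77%, 2.49% and 2.27% of all reads in controls 1, 2 and 3 and 2.32%, 2.35% and 2.26% in knockouts, which is 2.17% ± 0.37 and 2.31% ± 0.05 (SD, n = 3 per group). The groups overlap and the controls vary more than the means differ. In summed CPM complex IV stood at 5256, 10694 and 8038 in controls against 10482, 10586 and 10722 in knockouts. Complex V stood at 5482, 9754 and 7911 against 9513, 9588 and 9511. Complex III stood at 2456, 4035 and 3319 against 3592, 3641 and 3559. Control 2 exceeded all 3 knockouts for complexes III and V and 2 of the 3 for complex IV. Of the 4 complexes, complex II had each knockout above each control in its sum, by a narrow margin, at 576, 808 and 825 CPM in controls against 837, 840 and 876 in knockouts. This held only with TMM scaling: as a share of all reads complex II had 0.0797% ± 0.0098 in controls and 0.0776% ± 0.0003 in knockouts, and control 3 (0.0905%) was above every knockout.

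**Figure D3:**
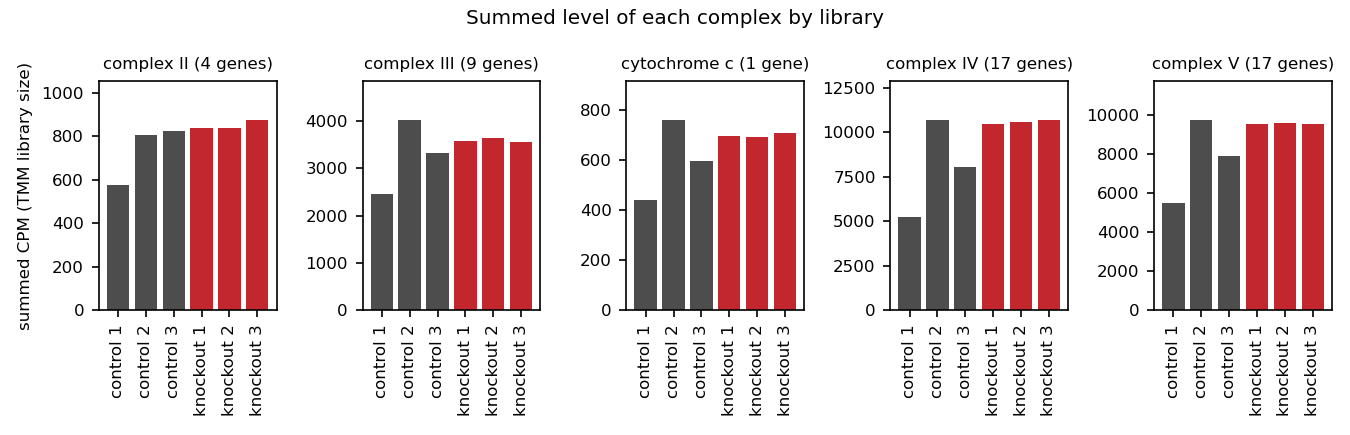
Bars give the summed CPM (TMM library size) of the genes of each complex in each library, with controls in grey and knockouts in red and an axis that starts at 0 in each panel. Control 1 is the lowest bar in every panel, and control 2 reaches or passes the knockouts in complexes III, IV and V and in cytochrome c.

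Complex II, succinate dehydrogenase, also serves in the citric acid cycle. None of its 4 genes was called by edgeR, DESeq2 or limma-voom, and 1 had an unadjusted p under 0.05 (11.3% of all genes were higher at that limit). Sdhc, which anchors the enzyme in the membrane and helps bind haem (chromosome 1, 171127165 to 171150603 of mm10), stood at 75.9, 133.8 and 109.1 CPM in controls against 143.0, 149.4 and 143.0 in knockouts. Each knockout was above each control, and the fit gave a log2 fold change of 0.45 (SE 0.20; edgeR adjusted p 0.194). Sdhb, the iron-sulfur subunit, had 188.5, 339.1 and 391.1 CPM in controls against 385.5, 379.4 and 395.5 in knockouts, so that control 3 lay among the knockouts. Sdha, the flavoprotein that oxidises succinate, was the one gene of the complex with a negative fold change, with 265.7, 226.1 and 184.5 CPM against 204.7, 198.8 and 191.8 (log2 fold change −0.18, adjusted p 0.549). Control 1 was its highest library. Sdhd, the other anchor, also had controls far apart, with 45.5 CPM in control 1 and 140.6 in control 3 against 103.7 to 146.0 in knockouts.

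In complex III, which moves electrons from ubiquinol to cytochrome c, the Rieske protein gene rose. Uqcrfs1 (ENSMUSG00000038462; chromosome 13, 30540308 to 30545362, minus strand; promoter printed above) had 1331, 1257 and 1839 reads in controls against 2343, 2334 and 2325 in knockouts. That is 127.1, 119.3 and 141.0 CPM against 217.8, 211.7 and 209.3. The 3 controls lay close together here, control 1 included, and every knockout was above every control. The mean level rose 1.65-fold, from 129 ± 11.0 to 213 ± 4.38 CPM (SD over 3 libraries each), a log2 fold change of 0.72 (SE 0.14; edgeR adjusted p 0.0258). Its exons overlap no other annotated gene. The adjusted p was 0.159 with knockout 1 and 2 as 1 library by edgeR, and 0.0220 in that setting by DESeq2. Once the length and GC trend was removed the log2 fold change was 0.39 (adjusted p 0.154), with library size scaling 0.45 (0.0999), and the call was also lost without control 2 (0.0621) or without knockout 1, 2 or 3 (0.163, 0.156 and 0.0783).

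The other redox subunit of complex III, cytochrome c1, did not pass. Cyc1 had 84.4, 134.8 and 158.8 CPM in controls against 137.3, 137.7 and 178.4 in knockouts, with control 3 above knockouts 1 and 2 (log2 fold change 0.26 ± 0.22 (SE), adjusted p of 0.518). The core proteins Uqcrc1 and Uqcrc2 frame the matrix side of the complex. Uqcrc2 had 71.8, 101.4 and 104.7 CPM in controls against 134.3, 132.4 and 138.2 in knockouts; the groups did not overlap, and edgeR gave a log2 fold change of 0.54 ± 0.17 (SE) and an adjusted p of 0.0896 while DESeq2 and limma-voom called it (0.0386 and 0.0219). Its exons overlap those of Pdzd9 on the other strand. Uqcrc1 had 162.4, 270.9 and 375.2 CPM in controls against 325.9, 302.9 and 409.6 in knockouts, with control 3 and knockout 3 highest in their groups. The 5 small subunit genes Uqcrb, Uqcrh, Uqcrq, Uqcr10 and Uqcr11 had log2 fold changes from −0.28 to 0.24 with none called, and the median of these 5 was −0.01. Uqcr11 was at 444, 832 and 613 CPM in controls against 516, 529 and 510 in knockouts, so that the knockouts lay between control 1 and control 3. Cycs, the soluble carrier between complexes III and IV, which also triggers apoptosis when released from mitochondria, had 442.6, 763.0 and 595.7 CPM in controls against 696.7, 693.3 and 711.0 in knockouts (log2 fold change 0.22, adjusted p of 0.566).

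Among the complex IV genes Cox7a2l rose. Cox7a2l (ENSMUSG00000024248; chromosome 17, 83501918 to 83517330, minus strand; promoter printed above) encodes a relative of the Cox7a subunits that is known as a supercomplex assembly factor. It had 2024, 3266 and 3990 reads in controls against 5276, 5105 and 6313 in knockouts, which is 193, 310 and 306 CPM against 490, 463 and 568. The groups did not overlap, and the lowest knockout was 463 where the highest control was 310. The mean level rose 1.88-fold, from 270 ± 66.2 to 507 ± 54.6 CPM (SD over 3 libraries each), a log2 fold change of 0.91 (SE 0.21; edgeR adjusted p 0.0383). Its exons overlap no other annotated gene. Without control 1 the log2 fold change was 0.72 with an adjusted p of 0.0223, and once the length and GC trend was removed 0.62 with 0.0495. The call was lost with knockout 1 and 2 as 1 library (0.154 by edgeR, but 0.00722 by DESeq2), without control 2 or 3 (0.0629 and 0.0561) and on leaving out knockout 1, 2 or 3 (0.161, 0.146 and 0.121).

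The 10 genes for the ubiquitous complex IV subunits had a median log2 fold change of 0.27, with 9 of 10 above 0 (Cox6a1, Cox6c, Cox7a2 and Cox7c turned negative with library size scaling) and none called by edgeR. Of the 10, 2 had an unadjusted p under 0.05 (11.3% of all genes were higher at that limit). DESeq2 called 1 (5.38% of all genes) and limma-voom 2 (7.38%). Cox8a, a small hydrophobic subunit, had 370.8, 836.5 and 618.4 CPM in controls against 1034, 1068 and 952 in knockouts, a log2 fold change of 0.74 (SE 0.27; edgeR adjusted p 0.124); DESeq2 gave 0.0233 and limma-voom 0.00914. Cox5a, which sits on the matrix side, had 373.1, 791.0 and 610.8 CPM in controls against 915.5, 907.7 and 870.9 in knockouts (edgeR adjusted p 0.176; exons of Gm26631 overlap on the other strand). Cox4i1, the main regulatory subunit and the gene of the set with the most reads, had 1259, 2864 and 2199 CPM in controls against 2997, 2990 and 3272 in knockouts (log2 fold change 0.55 ± 0.28 SE, adjusted p 0.264; exons of Emc8 overlap on the other strand). In these 3 genes every knockout was above every control, while the controls themselves differed by more than 2-fold between control 1 and control 2. Cox6b1 also had groups that did not overlap, whereas in Cox6a1, Cox6c, Cox7c and Cox5b control 2 lay above all 3 knockouts. Cox7b, on the X chromosome, had 116.0 to 166.7 CPM in controls against 113.2 to 138.2 in knockouts.

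The tissue isoforms of complex IV were low in level, apart from Cox7b2 and Cox8c (64.6 CPM per kb of exon in controls). Per kb of exon, the 4 lowest mean control levels among the 48 genes were those of Cox6a2 (4.98 CPM per kb), Cox6b2 (6.16), Cox4i2 (7.07) and Atp5s (10.6), and the highest were those of Cox6a1 (1488), Cox4i1 (1359) and Cox8a (983). Exon lengths cover all annotated transcripts of a gene, so these levels are rough. Cox7b2, an isoform known from testis, was at 238 CPM per kb in the controls against 117 for the ubiquitous Cox7b, and gave 47.5% ± 1.79 of the reads of the pair in controls and 47.4% ± 0.78 in knockouts (SD, n = 3). It had 96.6, 155.4 and 135.4 CPM against 124.5, 120.2 and 104.3, with a log2 fold change of −0.15 (adjusted p of 0.673) that became −0.57 and was called (0.0388) once the length and GC trend was removed. Cox8c, also known from testis, had 28.0, 28.3 and 32.5 CPM in controls against 41.0, 39.6 and 38.2 in knockouts, with no overlap and an adjusted p of 0.169. Cox6b2, a testis isoform as well, had 3.53, 8.73 and 8.20 CPM against 12.8, 12.6 and 12.8 (log2 fold change 0.90 ± 0.36 (SE), adjusted p of 0.161), again without overlap. The muscle isoform Cox7a1 had 10.8, 9.02 and 8.43 CPM against 9.67, 8.35 and 7.38. Cox6a2, also of muscle, had 4.59, 1.52 and 4.06 CPM against 2.7, 3.08 and 2.52. Both had overlapping groups, and of 6 tested striated muscle markers edgeR called 0 and DESeq2 1 higher (2.03% and 5.38% of all genes).

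Cox4i2, the isoform of subunit 4 known from lung and low oxygen, had the largest fold change of the 48 but did not pass the edgeR test. Its gene (chromosome 2, 152754173 to 152765037) had 22, 40 and 141 reads in controls against 186, 218 and 185 in knockouts, which is 2.1, 3.80 and 10.8 CPM against 17.3, 19.8 and 16.7. Control 3 lay nearer to the knockouts than to the other controls. The fit gave a log2 fold change of 1.67 (SE 0.49; edgeR adjusted p 0.0746), 0.0113 by DESeq2 and 0.00401 by limma-voom. By edgeR it passed without control 3 (2.59, adjusted p 0.0231), with no filter (0.0360) and with the replicate number as a block (1.96, 0.0350). It did not pass without control 1 (1.28, 0.0946), without control 2 (0.174) or without a knockout (0.156 to 0.227), and DESeq2 no longer called it with knockout 1 and 2 as 1 library (0.0838). Of 7 tested smooth muscle and myoid markers 3 were called higher by edgeR (Acta2, Actg2 and Myl9), where 2.03% of all genes were. None was called lower, where 2.8% of all genes were. The 8 markers of the list together stood at 159 to 189 CPM in controls against 361 to 492 in knockouts. Cnn1 and Myh11, later markers of smooth muscle, were at 0.604 ± 0.813 and 3.12 ± 3.59 CPM in controls and 1.90 ± 1.90 and 3.47 ± 0.23 in knockouts. Control 3 was the highest control both for Cox4i2 and in the marker sum, where the controls lay closer together (163, 159 and 189 CPM). Knockout 3 was lower than knockouts 1 and 2 in the marker sum (361 CPM against 486 and 492), where Cox4i2 had 16.7 against 17.3 and 19.8. The part of smooth muscle cells in the Cox4i2 reads was not tested.

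**Figure D4:**
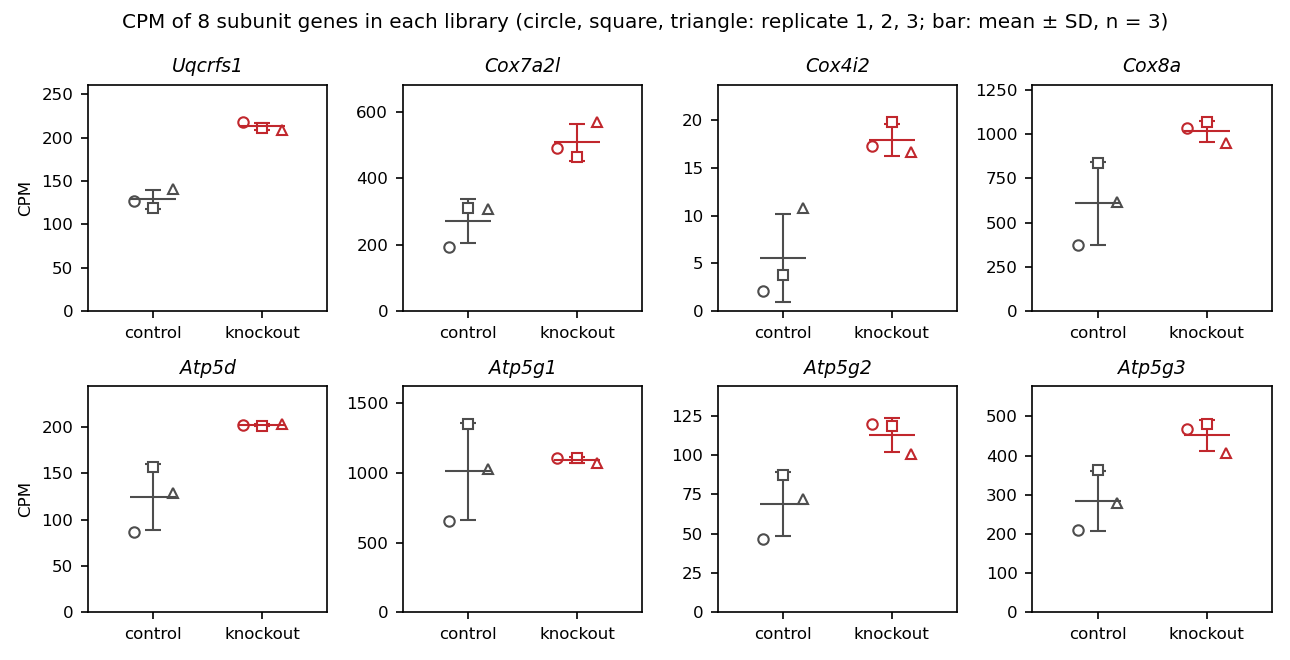
CPM (TMM library size) of 8 of the genes in each library, with controls in grey and knockouts in red, symbols for replicates 1 to 3 and a bar for the mean ± SD (n = 3 per group). Uqcrfs1 has 3 close controls between 119 and 141 CPM, in most other panels control 1 is far below, and in Atp5g1 the knockouts lie between control 3 and control 2.

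Complex V makes ATP in a catalytic head, F1, that is driven by a rotor in the membrane and held by a peripheral stalk. All 17 of its genes had a positive log2 fold change, from 0.03 to 0.72, though Atp5g1, Atp5h, Atp5j2, Atp5k and Atp5mpl turned negative with library size scaling. Of the 17 none was called by edgeR, with 4 at an unadjusted p under 0.05, 3 called by DESeq2 and 4 by limma-voom. The shares higher over all genes were 11.3% at that unadjusted limit, 5.38% by DESeq2 and 7.38% by limma-voom. The median of the 17 was 0.37, and 0.17 without control 1. In the F1 head Atp5d, the delta subunit of the rotor stalk, had 86.5, 157.4 and 128.8 CPM in controls against 202.4, 201.6 and 203.7 in knockouts. The groups did not overlap and the knockouts were nearly equal; the fit gave a log2 fold change of 0.71 (SE 0.20; edgeR adjusted p 0.0733), and 0.0134 by DESeq2. Without control 1 it was 0.50 and was called by edgeR (0.0482). Its exons overlap those of Cbarp on the other strand. Atp5b, the catalytic beta subunit, had 692, 985 and 970 CPM in controls against 1100, 1111 and 1238 in knockouts, without overlap (log2 fold change 0.38 ± 0.20 (SE), adjusted p of 0.273). Atp5a1, the alpha subunit, had 191.8, 325.4 and 313.8 CPM against 310.5, 316.9 and 463.3, where knockout 3 stood apart and the other 2 knockouts lay within the range of the controls (adjusted p 0.349; exons of Haus1 overlap on the other strand). Atp5c1, the central stalk, also had knockouts above all controls, at 503, 1124 and 962 against 1173, 1161 and 1300 CPM.

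The c subunits form the proton-driven ring, and 3 genes on separate chromosomes encode the same mature c subunit behind different import sequences. Atp5g2 (chromosome 15, 102662864 to 102672352) had 46.8, 87.0 and 72.0 CPM in controls against 119.9, 118.6 and 100.5 in knockouts, a log2 fold change of 0.72 (SE 0.21; edgeR adjusted p 0.0770). Atp5g3 (chromosome 2, 73908447 to 73911326) had 210.9, 362.2 and 278.7 CPM against 468.5, 481.5 and 407.7, with 0.67 ± 0.21 (SE) and 0.0876; DESeq2 called both (0.0227 and 0.0121). In these 2 genes every knockout was above every control. Atp5g1 (chromosome 11, 96068852 to 96075670), which gave most of the c subunit reads, had 658, 1353 and 1029 CPM against 1108, 1109 and 1069, with the knockouts inside the range of the controls (log2 fold change 0.11 ± 0.25 (SE), adjusted p of 0.832). Its share of the reads of the 3 genes was 71.9%, 75.1% and 74.6% in controls against 65.3%, 64.9% and 67.8% in knockouts, which is 73.8% ± 1.73 and 66.0% ± 1.56 (SD, n = 3). The share was lower in each knockout than in each control, control 1 included. An exact two-sided permutation test gave p = 0.1, the smallest that 3 against 3 allows, and 0.233 after Benjamini-Hochberg adjustment over the 7 isoform shares compared. The test counted every library as separate and was not repeated with knockout 1 and 2 as 1 library. Cox4i2 and Cox6b2 had shares of their pairs that did not overlap either, at 0.263% ± 0.197 against 0.579% ± 0.075 and 1.78% ± 0.12 against 2.38% ± 0.09, with the same exact permutation p of 0.1. The shares of Cox6a2, Cox7a1, Cox7b2 and Cox8c gave exact permutation p of 0.4 to 1.

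The 4 peripheral stalk genes Atp5f1, Atp5h, Atp5j and Atp5o had log2 fold changes of 0.03 to 0.34 and the 4 small membrane subunit genes Atp5j2, Atp5k, Atp5l and Atp5mpl 0.08 to 0.37. None of the 8 had an unadjusted p under 0.05 or groups that did not overlap. Atp5j lies head to head with Gabpa, the gene of an ETS factor, and its exons overlap those of Gabpa on the other strand. Atp5s, coupling factor B, had 24.9, 22.6 and 17.3 CPM against 38.2, 34.9 and 22.9 (adjusted p of 0.187). The inhibitor gene Atpif1, outside the 48, stood at 507 ± 81.5 CPM in controls and 439 ± 24.7 in knockouts (log2 fold change −0.21, adjusted p of 0.511).

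Other genes of the pathway gave few calls by edgeR. The shares over all 14766 genes to set beside the counts that follow are 11.3% higher and 12.8% lower at an unadjusted p under 0.05, 5.38% higher and 5.74% lower by DESeq2, and 7.38% higher and 11.3% lower by limma-voom. For groups that do not overlap they are 16.8% higher and 15.8% lower. Of 35 tested assembly factors edgeR and DESeq2 called 0, with 0 higher and 2 lower at an unadjusted p under 0.05 and 3 lower by limma-voom. Their median log2 fold change of 0.12 was −0.04 without control 1, −0.12 with library size scaling and −0.04 once the length and GC trend was removed. Of 19 regulators of mitochondrial gene expression edgeR and DESeq2 called 0, with 5 lower at an unadjusted p under 0.05 and 4 lower by limma-voom. Of these 19 genes 17 had a negative log2 fold change, and the median was −0.37, with −0.41 without control 1, −0.64 with library size scaling and −0.28 once the length and GC trend was removed. These regulators are long genes, with a median exon length of 5687 bases. Of 13 citric acid cycle enzymes edgeR called 0, with 3 higher and 1 lower at an unadjusted p under 0.05, 3 higher by DESeq2, and 3 higher and 2 lower by limma-voom. Their median of 0.15 was 0.03 without control 1 and −0.11 with library size scaling.

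Of 7 carriers for ATP, phosphate and the outer membrane edgeR called 0, with 4 higher at an unadjusted p under 0.05 and 3 higher by DESeq2 and by limma-voom. All 7 had a positive log2 fold change, 6 had each knockout above each control, and the median of 0.56 was 0.36 without control 1. Among 46 genes named Nduf, mostly for complex I and its assembly, edgeR called Ndufs1, the largest iron-sulfur subunit of complex I, lower by 0.78 on the log2 scale (log2 fold change −0.78, adjusted p 0.0224) and 0 higher. DESeq2 called 2 of the 46 higher and 1 lower, limma-voom 3 and 1, and at an unadjusted p under 0.05 there were 3 and 1. In 12 of the 46 each knockout was above each control and in 1 below, and the median of 0.14 was 0.01 without control 1 and −0.10 with library size scaling. Of 77 mitochondrial ribosomal protein genes edgeR called 1 lower, Mrps27, and 0 higher. DESeq2 called 4 higher and 1 lower, limma-voom 6 and 5, and at an unadjusted p under 0.05 there were 8 and 3. Groups did not overlap in 17 higher and 8 lower, and the median of 0.08 was −0.03 without control 1 and −0.18 with library size scaling.

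None of the subunits of the same complexes that are made from mitochondrial DNA passed the edgeR test. Cytochrome b of complex III (mt-Cytb) stood at 40000 ± 6912 CPM in controls and 60142 ± 3659 in knockouts (SD, n = 3; log2 fold change 0.59, adjusted p of 0.225), and the catalytic subunit of complex IV (mt-Co1) at 33615 ± 13708 and 66325 ± 3603 (0.98, adjusted p of 0.122). The ATP synthase subunit mt-Atp6 had a log2 fold change of 0.36 and mt-Atp8 one of −0.66, with adjusted p of 0.601 and 0.479 by edgeR. The complex IV genes mt-Co2 and mt-Co3 had 0.37 and 0.17 (adjusted p of 0.626 and 0.854 by edgeR). In controls mt-Co2, mt-Co3, mt-Atp6 and mt-Atp8 stood at 136, 375, 190 and 25.5 CPM, far below mt-Cytb and mt-Co1. The reason for this difference in level was not tested. Of the 13 protein genes of mitochondrial DNA edgeR called 2 higher, DESeq2 5 and limma-voom 4, with 4 higher at an unadjusted p under 0.05 and 5 whose groups did not overlap. The 2 by edgeR were the complex I genes mt-Nd5, at 3727 ± 279 and 6901 ± 419 CPM, and mt-Nd4l, at 5.12 ± 1.05 and 29.7 ± 24.9 CPM, where knockout 3 alone had 58.1. The 13 together took 15.2% ± 1.54 of reads in controls and 19.9% ± 0.19 in knockouts. With these genes left out before scaling, the median of the 48 nuclear genes was again 0.32 and Uqcrfs1 and Cox7a2l were again the 2 called (background 2.05%).

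**Figure D5:**
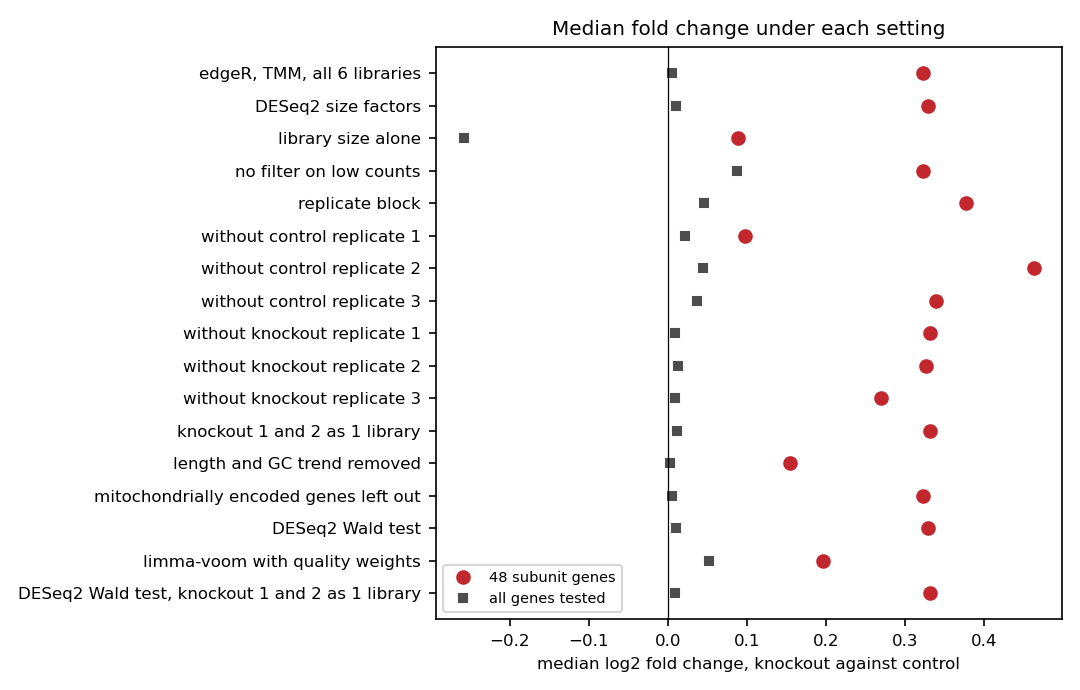
Median log2 fold change of knockout against control over the 48 genes (red circles) and over all genes tested (grey squares) under each way of scaling, testing or leaving out libraries. The median of the 48 genes is above that of all genes in every setting, and runs from 0.09 with library size scaling and 0.10 without control 1 to 0.46 without control 2.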

How the data were processed

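Read counts per Ensembl gene for 6 libraries were used as the authors deposited them, whole numbers with no normalization. The submitters' processing notes name mm10 as build and list STAR 2.7.5c, Trimmomatic 0.39 and StringTie 2.1.7 beside edgeR and DESeq2, without saying what each did. Nothing in the sources used here names the counter, annotation, strand setting or filter. The other deposited columns hold the sum over libraries, used for the read minimum, and the mean, which was not used. Per the labels' protocols reads were paired, 150 bases each. Symbols, positions and exon lengths come from GENCODE M21 (GRCm38, which is mm10), matched for 22562 of 22579 identifiers; promoters come from RefSeq, GRCm38.p6. Reads of near-identical copies, such as processed pseudogenes of subunit genes, and of overlapping genes on opposite strands (12 of the 48) cannot be told apart.

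The test was the edgeR 4.0.16 quasi-likelihood F test (R 4.3.3) on all genes passing filterByExpr, with TMM scaling, robust dispersion and genotype as the sole term; all 48 genes passed that filter. Benjamini-Hochberg adjustment ran over all 14766 genes and calls are at 0.05. Each SE is the absolute log2 fold change divided by the root of its F statistic. Alternatives were other scalings, no filter, a block for the replicate number, leaving out each library, knockout 1 and 2 as their rounded mean, removal of a lowess trend with length and GC (span 0.3), mitochondrially encoded genes left out, DESeq2 1.42.0 and limma-voom (limma 3.58.1) with quality weights. DESeq2 on the merged pair was added after the results were seen. The procedure was tested on simulated data with independently drawn libraries. That test could not cover a pair as close as knockout 1 and 2. The genes, lists and tests were chosen with earlier results of these data known. Genes chosen by rule for description were those called, the 3 with the smallest p in each complex, and the catalytic and redox subunits. The tissue isoforms and the inhibitor were added by the same rule. For some of these the fold change or adjusted p is not printed. The other genes named with values were chosen after their values were seen. Counting precision follows from depth, and PCR copies are counted as reads. Protein sequences were not used here.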

Additional observations from a re-analysis of the deposited data

How the results depend on the processing

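The median log2 fold change of the 48 genes and those of complexes II, IV and V stayed above 0 in all settings run; that of complex III turned to −0.10 once the length and GC trend was removed. The median of complex II was 0.083 with library size scaling and 0.077 with that trend removed, and that of complex III 0.002 with library size scaling. With each library left out in turn the medians ran from 0.10 to 0.46 for all 48, 0.016 to 0.51 for complex II, 0.04 to 0.37 for complex III, 0.12 to 0.48 for complex IV and 0.17 to 0.53 for complex V. Library size scaling moved the median of all genes from 0.01 to −0.26.

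Of the 48 genes, those called higher numbered 1 with library size scaling, 5 with no filter on low counts, 0 with knockout 1 and 2 as 1 library, 1 once the length and GC trend was removed, 8 by DESeq2 and 10 by limma-voom, and 0 to 3 with a library left out. In the same order the shares over all genes were 1.53%, 1.96%, 0.00649%, 1.69%, 5.38% and 7.38%, and 0.013% to 2.67%. With the trend removed 1 of the 48 was called lower (2.43% of all genes). Over all genes, 300 higher and 413 lower calls became 226 and 1152 with library size scaling, 1 and 0 with the pair as 1 library, 794 and 847 by DESeq2, 1090 and 1675 by limma-voom, and 259 lower by DESeq2 on the merged pair. With a library left out they ran from 2 to 414 higher and from 1 to 468 lower. The replicate numbers did not pair the samples (correlations of deviations −0.007, 0.009 and 0.003 for numbers 1, 2 and 3); the replicate block added the call of Cox4i2, kept both other calls and turned Uqcr10 to 0.00954.

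Reversed in sign, none of them called, were the following log2 fold changes. With library size scaling: Atp5g1 −0.11, Atp5h −0.21, Atp5j2 −0.10, Atp5k −0.15, Atp5mpl −0.14, Cox6a1 −0.10, Cox6c −0.0137, Cox7a2 −0.0512, Cox7c −0.12, Cycs −0.0108, Uqcrh −0.044. Once the length and GC trend was removed: Atp5h −0.28, Atp5k −0.20, Atp5mpl −0.23, Cox6a1 −0.14, Cox7a2 −0.13, Cox7c −0.29, Uqcrb −0.10, Uqcrh −0.13. By limma-voom: Atp5g1 −0.0126, Atp5h −0.0471, Atp5k −0.0593, Atp5mpl −0.000465, Cox6a1 −0.0773, Cox6a2 0.20. With each library left out in turn the ranges of those that turned were: Atp5g1 −0.12 to 0.39, Atp5h −0.13 to 0.20, Atp5j2 −0.0344 to 0.35, Atp5k −0.11 to 0.39, Atp5mpl −0.12 to 0.34, Cox6a1 −0.14 to 0.46, Cox7a2 −0.00505 to 0.40, Cox7b −0.26 to 0.0121, Cox7b2 −0.32 to 0.0142, Cox7c −0.0873 to 0.42, Sdhd −0.0496 to 0.64, Uqcr10 −0.23 to 0.24, Uqcrq −0.11 to 0.0799. Causes were not tested. Depth alone did not set the precision: Cox4i1 with 173595 reads had an SE of 0.28 and Uqcrfs1 with 11429 reads one of 0.14.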

Other observations

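Ndufa4l2, a paralogue of the complex IV subunit gene Ndufa4 that is known from low oxygen, had the largest log2 fold change among the 46 genes named Nduf and was chosen after its value was seen. It stood at 3.35 ± 2.15 CPM in controls and 10.9 ± 2.23 in knockouts (SD, n = 3), a log2 fold change of 1.69 (SE 0.46; edgeR adjusted p 0.0619). Among the carriers, also chosen after their values were seen, Slc25a4, the ADP/ATP carrier of heart and muscle, stood at 168 ± 45.0 and 291 ± 9.02 CPM (log2 fold change 0.79, edgeR adjusted p of 0.0504), and Slc25a31, the ADP/ATP carrier of germ cells, at 335 ± 131 and 555 ± 25.9 (0.73, 0.132). Of the citric acid cycle enzymes, Idh3b and Idh3g, subunits of isocitrate dehydrogenase, had log2 fold changes of 0.71 and 0.84 and citrate synthase (Cs) one of −0.44, with edgeR adjusted p of 0.0564, 0.134 and 0.116. None of these 6 genes passed the edgeR test.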
